A study of Sus scrofa with 6 samples.

Results

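The microRNAs (miRNAs) described here are 7 mature products known from white blood cells: ssc-miR-142-3p, ssc-miR-142-5p, ssc-miR-146a-5p, ssc-miR-146b, ssc-miR-150, ssc-miR-155-5p and ssc-miR-342. They were chosen by name, not by a measured value, though with earlier results of these data known, and come from 6 hairpins. The table lists 898 miRNAs, of which 280 carry a porcine name. Small RNA was sequenced from skin of Xiang pigs (Sus scrofa), a miniature breed from China, in 6 libraries, 3 of black skin with the codes S03, S04 and S05 and 3 of white skin with the codes S02, S06 and S07. All 6 samples were skin of the same breed, freed of hair and kept frozen in an RNA preservative, and the groups differ in the labels only by skin colour. The labels give no age, sex, body site or animal. Whether each library is another animal is not stated there either, and p-values then cover no more than the variation among these libraries, which can be technical. The study is about miRNAs in melanin formation and sets black against white skin.

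A miRNA is cut from a hairpin precursor, and either strand of the hairpin (the 5p or the 3p arm) can be loaded into an Argonaute protein and repress mRNAs that match its seed. Skin holds resident leukocytes, among them Langerhans cells, macrophages, mast cells and T cells, besides the blood in its vessels. In mice and humans miR-142 is made almost solely by blood cells of all lineages. miR-150 is abundant in mature B and T lymphocytes, where it represses MYB, and miR-342 is known from lymphoid and myeloid cells. miR-146a, miR-146b and miR-155 are induced when immune receptors signal through NF-kB. miR-146a and miR-146b share a seed and restrain that signalling through TRAF6 and IRAK1, whereas miR-155 favours activation of lymphocytes and macrophages. The miR-146 and miR-155 genes are also active outside the blood, in endothelium, keratinocytes and fibroblasts, so they mark leukocytes less strictly than miR-142.

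In Sscrofa11.1 the 6 hairpins lie on 6 chromosomes, so apart from the arms of miR-142 no member shares a precursor with another. MIR142 lies on chromosome 12 at 34609378 to 34609457, outside annotated genes and between TSPOAP1 and SUPT4H1. MIR146A lies on chromosome 16 at 63044261 to 63044338, between ATP10B and PTTG1. MIR146B lies on chromosome 14 at 113446854 to 113446952, with CUEDC2 as its nearest protein-coding gene. The precursor matched for ssc-miR-150, MIR150-1, lies on chromosome 6 at 54580912 to 54580988, outside annotated genes. MIR155 lies on chromosome 13 at 189138822 to 189138902, with MRPL39 as its nearest protein-coding gene. MIR342 lies on chromosome 7 at 121021761 to 121021840, the only one of the 6 within a protein-coding gene, EVL, a regulator of actin filaments.

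The values are RPM, reads scaled to a total of 1e+06 listed miRNA reads per library. The reads behind them were recovered and numbered between 7332769 and 8647930 per library in black skin and between 6454685 and 10165949 in white skin. These totals are sums over the rows, of which 47 have values equal to another row, so some reads may be counted more than once. Of the 454 miRNAs abundant enough to test, 32 (7.05%) differed between black and white skin (limma on log2(RPM + 1), adjusted p under 0.05), with 18 up (3.96%) and 14 down in black skin. Scaling to the named miRNAs alone, and testing only 242 of these, gave 16 higher and 19 lower. The median difference was 0.00 over all tested miRNAs and 0.13 over the 7 members, all of which were tested.

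The members were moderately abundant and had no shared direction between black and white skin. The test called 1 of the 7, ssc-miR-142-3p, which was higher in black skin, and left the other 6 uncalled (limma). At an unadjusted p under 0.05 there were 2, against 25.6% of all tested miRNAs, the other being ssc-miR-342. On the recovered reads DESeq2 called both members (11.7% of all tested miRNAs) and edgeR called ssc-miR-142-3p alone (6.61%). These counts are too small to set the members as a group apart from all tested miRNAs. Differences ran from 1.96 for ssc-miR-142-3p to -0.88 for ssc-miR-342 on the log2(RPM + 1) scale, 4 above and 3 below 0. Summed over the 7 members, the level was 4665 (S03), 3759 (S04) and 6009 RPM (S05) in black skin, against 4484 (S02), 3079 (S06) and 6024 RPM (S07) in white skin. Black skin averaged 4811 ± 1132 RPM and white skin 4529 ± 1473 RPM (mean ± SD, n = 3 each), and the groups overlapped. Together the members held 0.308 to 0.602% of the miRNA reads of a library.

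**Figure D1:**
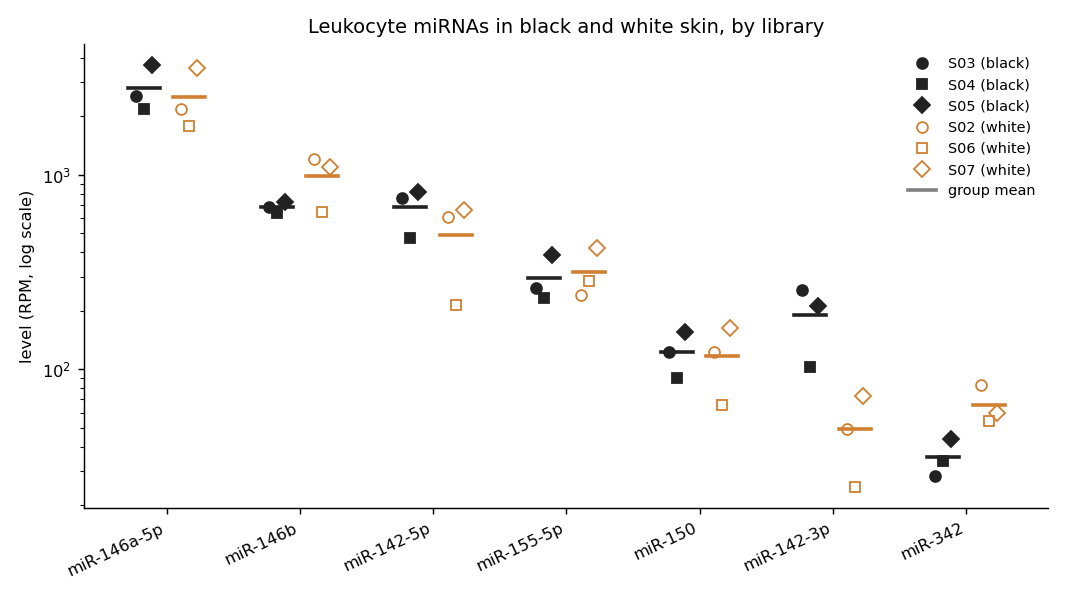
Level of each of the 7 leukocyte miRNAs (RPM, log scale) in the 3 black libraries (filled, left) and the 3 white libraries (open, right), with a bar at the group mean. The groups separate for miR-142-3p, higher in black skin, and for miR-342, lower in black skin, and overlap for the other 5.

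miR-142, the member tied most closely to blood cells, gave the one call. ssc-miR-142-3p measured 256 (S03), 103 (S04) and 211 RPM (S05) in black skin, against 49.2 (S02), 24.8 (S06) and 73.3 RPM (S07) in white skin. The lowest black library lay above the highest white one, as for 13.4% of all tested miRNAs. These values rest on 758 to 1984 reads per black library and 160 to 745 per white library, so counting error is small beside the spread between libraries. The group means differed 3.87-fold, and the difference on the log2(RPM + 1) scale was 1.96 (standard error 0.44, 95% interval 0.96 to 2.96, limma, adjusted p = 0.0324). It was the second highest of all 454 differences. The direction held without each library in turn, with differences of 1.55 to 2.35. The call was lost without S03 (adjusted p = 0.105), S05 (0.0971), S02 (0.0507) or S06 (0.110), and held without S04 (0.0373) or S07 (0.0377).

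The opposite arm of the same hairpin was the more abundant one and did not separate the groups. ssc-miR-142-5p measured 762 (S03), 475 (S04) and 816 RPM (S05) in black skin, against 605 (S02), 213 (S06) and 661 RPM (S07) in white skin. The black library S04 lay below 2 of the white ones. Black skin averaged 684 ± 183 RPM and white skin 493 ± 244 RPM (mean ± SD, n = 3 each), with a difference of 0.60 (standard error 0.41, 95% interval -0.34 to 1.53, limma, adjusted p = 0.433). That interval does not exclude a rise of more than 2-fold. Without the white library S06, the lowest of all, the difference was 0.07, and leaving out each library in turn gave 0.07 to 0.89.

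**Figure D2:**
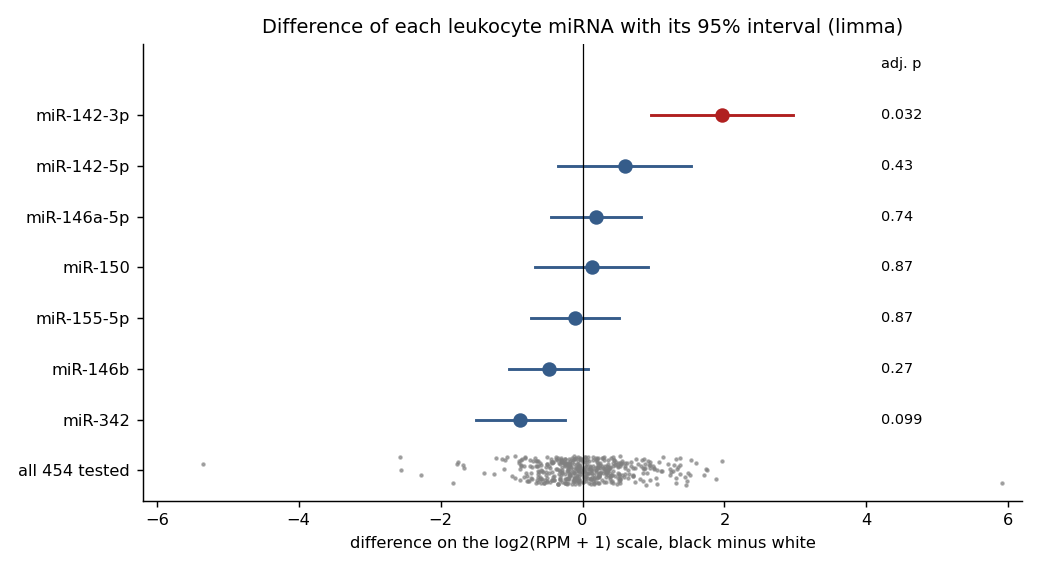
Difference between black and white skin on the log2(RPM + 1) scale with its 95% interval (limma) for the 7 members, red where the adjusted p is under 0.05, and the differences of all 454 tested miRNAs at the bottom. miR-142-3p, at 1.96, lies near the upper end of all tested miRNAs, and the intervals of 5 members include 0.

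The balance between the arms of miR-142 shifted toward the 3p arm in black skin. For every 100 reads of ssc-miR-142-5p, ssc-miR-142-3p had 33.6 (S03), 21.8 (S04) and 25.9 (S05) reads in black skin, against 8.13 (S02), 11.6 (S06) and 11.1 (S07) reads in white skin. The lowest black library lay well above the highest white one. Among the ratios of all pairs of tested miRNAs, 29.6% also did not overlap between the groups, in either direction. On the log2 scale the arm ratio of miR-142 averaged -1.90 ± 0.31 in black skin and -3.27 ± 0.29 in white skin (mean ± SD, n = 3 each). Its difference of 1.37 (standard error 0.25, 95% interval 0.85 to 1.89) passed the test over 41 hairpins with both arms tested (limma, adjusted p = 0.000552), 1 of 6 to do so among the 41 (14.6%). It was the second highest of these differences. Since both arms are divided within a library, library scaling enters this ratio only through the pseudocount. Unlike the call of the 3p arm alone, it passed without each library in turn, with differences of 1.20 to 1.51 and adjusted p up to 0.0101. How the authors assigned reads of variable length to an arm is not given in the sources used here.

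**Figure D3:**
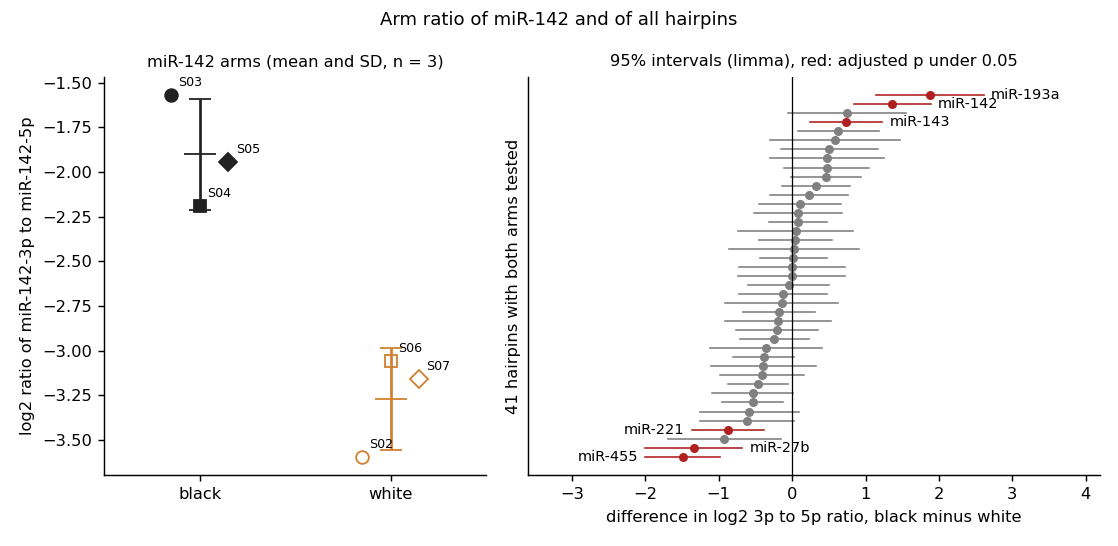
Left, log2 ratio of miR-142-3p to miR-142-5p in each library with mean and SD (n = 3), where the black libraries lie between -2.19 and -1.57 and the white ones between -3.59 and -3.06. Right, difference in this ratio between black and white skin with its 95% interval for 41 hairpins, of which the 6 in red passed the test.

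The lymphocyte miRNA ssc-miR-150 gave nearly equal means in the 2 skin colours. It measured 123 (S03), 90.6 (S04) and 156 RPM (S05) in black skin, against 123 (S02), 65.5 (S06) and 164 RPM (S07) in white skin. The white libraries covered the whole range of the black ones. Black skin averaged 123 ± 32.7 RPM and white skin 117 ± 49.4 RPM (mean ± SD, n = 3 each), and the difference was 0.13 (95% interval -0.67 to 0.93, limma, adjusted p = 0.869). Its sign turned without S05 (-0.06) or S06 (-0.24).

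ssc-miR-342, made from an intron of EVL in mammals, was the scarcest member in black skin. It measured 28.3 (S03), 33.7 (S04) and 43.7 RPM (S05) in black skin, against 82.9 (S02), 54.4 (S06) and 59.5 RPM (S07) in white skin. The highest black library lay below the lowest white one, as for 13.9% of all tested miRNAs. Black skin averaged 35.2 ± 7.83 RPM and white skin 65.6 ± 15.2 RPM (mean ± SD, n = 3 each), a ratio of 0.537. The difference was -0.88 (standard error 0.28, 95% interval -1.51 to -0.25) and was not called (limma, adjusted p = 0.0994). A call was made when RPM were rescaled to the named miRNAs and only 242 of these were tested (limma, adjusted p = 0.0366). Fewer tests were then adjusted for. DESeq2 on the recovered reads also called it (adjusted p = 0.0275).

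Of the NF-kB-responsive members, ssc-miR-146a-5p was the most abundant of the 7 in every library. It measured 2552 (S03), 2186 (S04) and 3669 RPM (S05) in black skin, against 2177 (S02), 1792 (S06) and 3540 RPM (S07) in white skin. Both groups spanned a similar range. The difference was 0.19 (95% interval -0.45 to 0.83, limma, adjusted p = 0.744), and it was -0.023 without S05 and -0.021 without S06.

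Its close relative ssc-miR-146b, from a different chromosome, leaned the other way. It measured 683 (S03), 639 (S04) and 726 RPM (S05) in black skin, against 1206 (S02), 642 (S06) and 1104 RPM (S07) in white skin. The white library S06 lay within the black range and the other white libraries above it. Black skin averaged 682 ± 43.6 RPM and white skin 984 ± 300.4 RPM (mean ± SD, n = 3 each), with a difference of -0.48 (95% interval -1.04 to 0.08, limma, adjusted p = 0.271). The ratio of ssc-miR-146a-5p to ssc-miR-146b was 3.74 (S03), 3.42 (S04) and 5.06 (S05) in black skin, against 1.81 (S02), 2.79 (S06) and 3.21 (S07) in white skin. The groups were apart in this ratio, with an exact two-sided permutation p of 0.1, the smallest that 3 against 3 libraries allow, and 0.175 after adjustment over all 21 pairs of members. The mature sequences of miR-146a and miR-146b are nearly identical, so reads can be exchanged between them and the ratio is uncertain.

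ssc-miR-155-5p, made from a non-coding transcript that is switched on in activated lymphocytes and macrophages, measured 261 (S03), 232 (S04) and 387 RPM (S05) in black skin. In white skin it measured 242 (S02), 286 (S06) and 423 RPM (S07). The groups overlapped throughout. The difference was -0.10 (95% interval -0.73 to 0.52, limma, adjusted p = 0.869), and its sign turned without S04 (0.05) or S07 (0.12).

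The change of ssc-miR-142-3p was set against that of each other member through their log2 ratios within a library. All 6 ratios were higher in every black library than in any white one, by 1.37 against ssc-miR-142-5p, 1.77 against ssc-miR-146a-5p, 1.83 against ssc-miR-150, 2.07 against ssc-miR-155-5p, 2.44 against ssc-miR-146b and 2.84 against ssc-miR-342. Each gave an exact permutation p of 0.1 (two-sided) and 0.1 after adjustment over the 6. As 0.1 is the smallest p that 3 against 3 libraries allow, no ratio can pass a threshold of 0.05 in this permutation test. The ratio to ssc-miR-142-5p is the arm ratio that passed with limma (adjusted p = 0.000552), where information on variance is shared over 41 hairpins. The permutation test uses the 6 libraries of that ratio alone. The 6 ratios share ssc-miR-142-3p and are not independent. Over all 21 pairs of members, the ratios of 12 did not overlap between the groups, against 29.6% of all pairs of tested miRNAs. Without ssc-miR-142-3p, which separates the groups by itself, it was 6 of 15 pairs, and nothing is read from these counts since the pairs share members.

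The order of the mean levels differed between the groups in the place of ssc-miR-142-3p and in that of ssc-miR-142-5p and ssc-miR-146b. The last 2 changed places, but were nearly level in black skin, at 684 and 682 RPM, with ssc-miR-142-5p above in 2 of 3 libraries. In black skin the order ran from ssc-miR-146a-5p over ssc-miR-142-5p, ssc-miR-146b, ssc-miR-155-5p, ssc-miR-142-3p and ssc-miR-150 to ssc-miR-342. In white skin it ran from ssc-miR-146a-5p over ssc-miR-146b, ssc-miR-142-5p, ssc-miR-155-5p, ssc-miR-150 and ssc-miR-342 to ssc-miR-142-3p, which took the last place. The ranges of neighbours in this order overlapped in black skin for ssc-miR-142-5p with ssc-miR-146b, ssc-miR-155-5p with ssc-miR-142-3p, and ssc-miR-142-3p with ssc-miR-150. In white skin they overlapped for ssc-miR-146b with ssc-miR-142-5p, ssc-miR-142-5p with ssc-miR-155-5p, ssc-miR-150 with ssc-miR-342, and ssc-miR-342 with ssc-miR-142-3p. Small RNA libraries capture sequences with unequal efficiency, so levels of different miRNAs compare only roughly. In bulk skin, fewer leukocytes and less of a miRNA per leukocyte cannot be told apart.

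Within each group, the members varied mostly by library. Among the black libraries, S05 was highest for 6 of the 7 members and S04 lowest for 6. Among the white libraries, S07 was highest for 5 and S06 lowest for 6. For comparison, S05 was the highest black library for 43.0% of all tested miRNAs and S07 the highest white library for 30.2%, while S04 was the lowest for 34.4% and S06 for 37.4%. The spread was widest for the arms of miR-142 in white skin, where S07 had 2.96 times the level of S06 for the 3p arm and 3.10 times for the 5p arm. It was narrowest for ssc-miR-146b in black skin, where the highest library had 1.14 times the level of the lowest. S05 and S07 were also the deepest libraries of their groups and S04 and S06 the shallowest. The part of depth in this order was not tested.

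**Figure D4:**
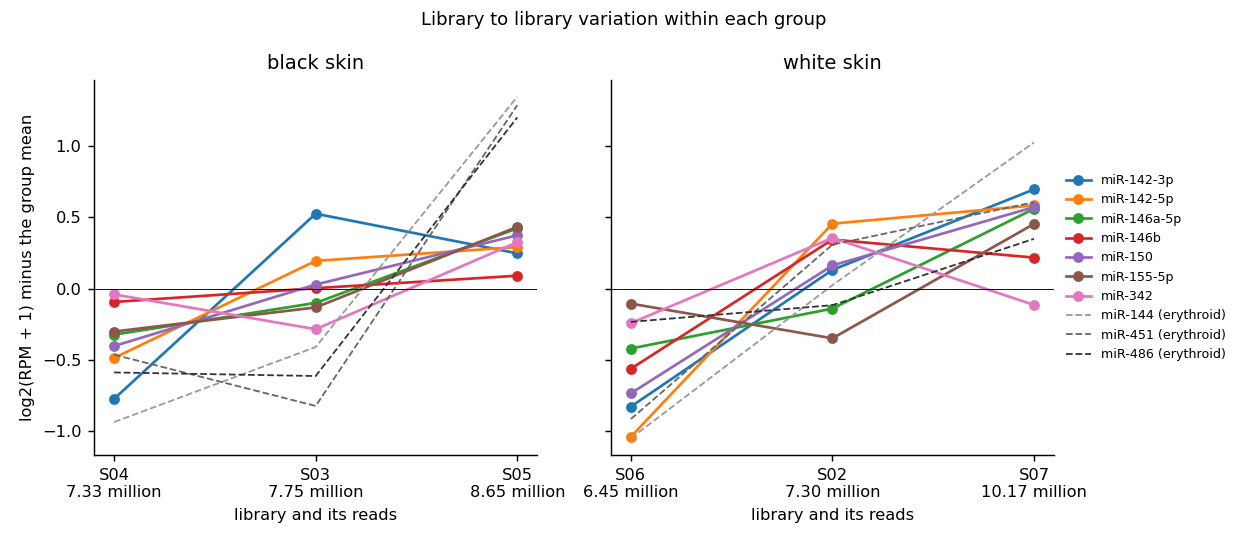
Deviation of each member (solid lines) and of 3 erythroid miRNAs (dashed lines) from its group mean on the log2(RPM + 1) scale, with the libraries of each group ordered by their recovered reads. Most members are lowest in S04 and S06 and highest in S05 and S07.

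Red cell miRNAs, which report blood in the tissue, also varied widely within the groups. ssc-miR-451, the main miRNA of red cells, measured 981 (S03), 1260 (S04) and 4248 RPM (S05) in black skin, against 3948 (S02), 1688 (S06) and 4855 RPM (S07) in white skin. All 3 erythroid miRNAs (ssc-miR-144, ssc-miR-451 and ssc-miR-486) were highest in S05 among black and in S07 among white libraries, and lowest in S06 among white libraries. Their summed level was 994 to 4298 RPM in black and 1723 to 4914 RPM in white skin. None of the 3 passed the test, against 7.05% of all tested miRNAs. DESeq2 called 1, ssc-miR-486, edgeR called 0, and 1 had an unadjusted p under 0.05, against 11.7%, 6.61% and 25.6%. Differences were 1.24 for ssc-miR-144, -0.87 for ssc-miR-451 and -1.68 for ssc-miR-486 on the log2(RPM + 1) scale (limma, adjusted p = 0.284, 0.368 and 0.0743). S03 had the highest ssc-miR-142-3p of all libraries and the lowest ssc-miR-451, while among white libraries both were highest in S07 and lowest in S06. The part of blood content in the level of ssc-miR-142-3p was not tested.

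Of the miRNAs of vessel walls, 3 of 6 tested arms passed the test, against 7.05% of all tested miRNAs. Arms of the same hairpin are not independent, and the count is small. Both arms of the endothelial miR-126 and ssc-miR-143-3p of smooth muscle were called higher in black skin (limma, adjusted p = 0.0423 for both arms and 0.00314). Of the miR-126 arms edgeR called 0 and DESeq2 1, and both tools called ssc-miR-143-3p. Over all tested miRNAs edgeR called 6.61% and DESeq2 11.7%. The other 3 smooth muscle arms, ssc-miR-143-5p (0.55), ssc-miR-145-3p (0.60) and ssc-miR-145-5p (0.36), did not pass (limma, adjusted p = 0.215, 0.119 and 0.433). The summed level of the miR-126 arms was 28989 to 35450 RPM in black and 17322 to 23899 RPM in white skin. That of the 4 arms of miR-143 and miR-145 was 64998 to 84502 RPM in black and 26728 to 34192 RPM in white skin. The keratinocyte and epithelial miRNAs with a row in the table, ssc-miR-205 and ssc-miR-429, summed to 11807 to 16941 RPM in black and 15361 to 23062 RPM in white skin, with neither called by limma, edgeR or DESeq2, nor at an unadjusted p under 0.05. The other 5 names of that list have no row in the table. Of the 5 mesenchymal rows ssc-miR-214 fell, and 3 had an unadjusted p under 0.05. The 3p arms of miR-199a and miR-199b have the same values in every library, and with these counted once the sum of the 4 distinct rows was 18791 to 26118 RPM in black and 21134 to 32471 RPM in white skin. Of the 5 tested striated muscle products and the 1 tested melanocyte product, ssc-miR-204, none was called by limma. At an unadjusted p under 0.05 there was 1 of each list, against 25.6% of all tested miRNAs. edgeR and DESeq2 called ssc-miR-206 of skeletal muscle lower and DESeq2 called ssc-miR-204 higher. The part of these other cell types in the level of ssc-miR-142-3p was not tested.

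Other miRNAs of blood cell development gave no common direction. Of 12 tested products 1 fell, none rose and 11 did not pass (limma), with a median of 0.26 against 0.00 over all tested miRNAs. At an unadjusted p under 0.05 there were 5 of the 12, against 25.6% of all tested miRNAs, while edgeR called 1 and DESeq2 called 2, against 6.61% and 11.7%. Of the 5, ssc-miR-181b was lower in black skin. ssc-miR-181c (0.95) and the scarce ssc-miR-17-3p (0.71), ssc-miR-19a (0.94) and ssc-miR-424-5p (1.05) were higher. miR-223, the main miRNA of neutrophils and other myeloid cells, has no row in the table, so the myeloid lineage rests on the shared members alone. ssc-miR-181b, of a family that tunes T cell receptor signalling, was the product that fell, with 87.8 ± 9.68 RPM in black skin against 193 ± 51.2 RPM in white skin (mean ± SD, n = 3 each), a difference of -1.09 (limma, adjusted p = 0.0329). Its relative ssc-miR-181a, the most abundant product of the list, gave -0.23 (adjusted p = 0.494). ssc-miR-20a and ssc-miR-92a, of the miR-17-92 cluster that drives lymphocyte growth, gave 0.02 and -0.25 (adjusted p = 0.971 and 0.492). The other listed products of this cluster gave -0.03 (ssc-miR-17-5p), 0.71 (ssc-miR-17-3p), 0.51 (ssc-miR-18a), 0.94 (ssc-miR-19a) and 0.60 (ssc-miR-19b). None of them was called by limma. Of 5 tested rows of other inflammation-linked miRNAs, 4 of them distinct, none was called by limma, edgeR or DESeq2, and differences ran from -0.11 to 0.74. At an unadjusted p under 0.05 (limma) there was 1, ssc-miR-132, against 25.6% of all tested miRNAs. ssc-miR-21 gave 0.19, ssc-miR-132 gave 0.74 and ssc-miR-9 gave -0.11 (adjusted p = 0.730, 0.154 and 0.911), and ssc-miR-9-1 has the same values as ssc-miR-9 in every library.

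Likeness of pattern was measured as the root mean square difference between log2(RPM + 1) profiles over the 6 libraries, each centred on its own mean, among 242 named miRNAs tested. It is a description over libraries that share depth and composition, and the pseudocount of 1 flattens the profiles of scarce miRNAs. The nearest to ssc-miR-142-3p was ssc-miR-32 (0.43), itself called higher in black skin at 162 against 43.1 RPM in white skin, followed by the scarce ssc-miR-490 (0.50) and ssc-miR-34c (0.51). The nearest to ssc-miR-142-5p were the scarce ssc-miR-19a and ssc-miR-34c (0.28 for both) and the member ssc-miR-150 (0.30). The arms of miR-142 lay farther apart from each other (0.73) than the 5p arm lay from ssc-miR-150. ssc-miR-146a-5p lay nearest to ssc-miR-21 (0.13), then ssc-miR-15a (0.17) and ssc-miR-150 (0.19). ssc-miR-150 lay nearest to ssc-miR-146a-5p (0.19), then ssc-miR-374b-3p (0.24) and ssc-miR-21 (0.28).

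The other members, like ssc-miR-142-3p, had all 3 of their nearest patterns outside the 7. ssc-miR-155-5p lay nearest to ssc-miR-17-5p and ssc-miR-16 (0.17 for both) and ssc-miR-421-3p (0.18). ssc-miR-146b and ssc-miR-342 both lay nearest to ssc-miR-2483 (0.21 and 0.18), a scarce miRNA averaging 6.53 RPM in black skin and 10.8 RPM in white skin. The next for ssc-miR-146b were ssc-miR-181a (0.24) and the scarce ssc-miR-369 (0.25), and for ssc-miR-342 ssc-miR-10b (0.22) and ssc-miR-210 (0.29). Among the members themselves the closest pair was ssc-miR-146a-5p and ssc-miR-150, and the farthest was ssc-miR-142-3p and ssc-miR-342 (1.55).

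The calls of the members depended little on the scaling, filter, pseudocount or test. ssc-miR-142-3p passed in all 10 such alternatives, with differences of 1.76 to 1.99 and adjusted p of 0.000319 (DESeq2) to 0.0447 (limma-voom). ssc-miR-342 passed in 2 of the 10, and the other 5 members in none.

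**Figure D5:**
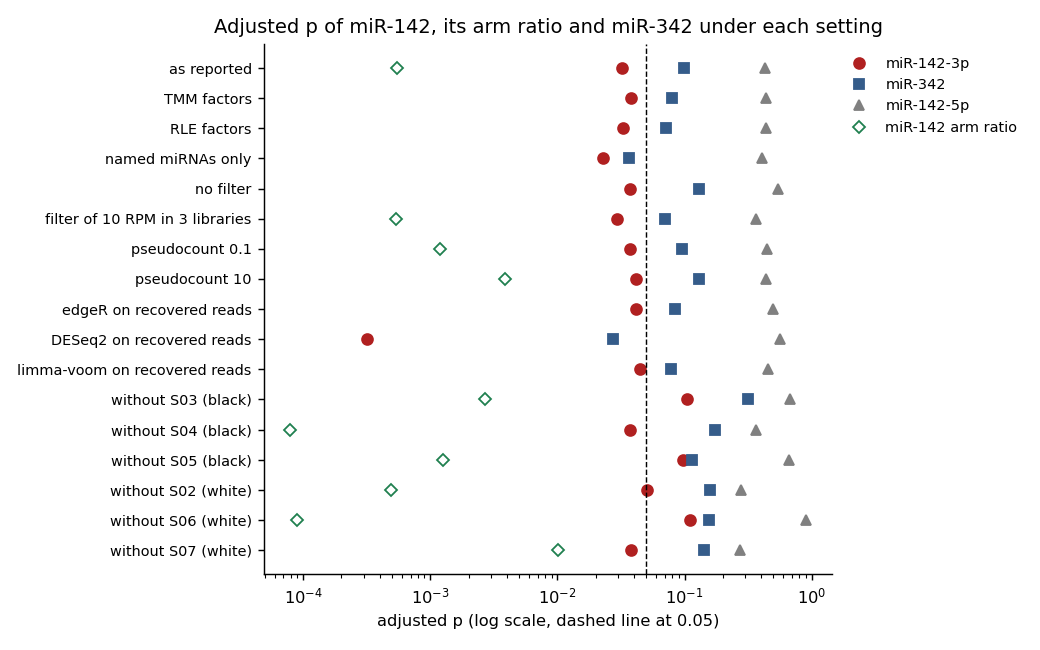
Adjusted p (log scale, dashed line at 0.05) of miR-142-3p, miR-342, miR-142-5p and the miR-142 arm ratio as reported, under 10 other settings and without each library. miR-142-3p crosses the line without S03, S05, S02 or S06, while the arm ratio stays below it in each of the settings in which it was fitted.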

How the data were processed

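Groups follow the labels' skin colour. The deposited table holds RPM, as its 6 columns, all of them used, each add up to 1e+06. The submitters' processing notes name Bowtie and, as the build, Sscrofa11.1, with no step attached to either. Not given in the sources used here are the miRNA database, the counting tool, any filter and the handling of reads that fit more than 1 miRNA. Dividing each RPM by the worth of 1 read gave whole reads for 100% of values (tolerance 0.001). Being shares, RPM of one miRNA also depend on the abundant others.

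Black minus white differences in log2(RPM + 1) were tested with limma 3.58.1 (R 4.3.3, trend on mean level) over 454 miRNAs kept by edgeR 4.0.16's filterByExpr (minimum count 10, minimum total 15), with Benjamini-Hochberg adjustment over all of them and a threshold of 0.05. Such a difference understates the change of scarce miRNAs. Arm ratios were fitted the same way over 41 hairpins. Ratios between members got exact permutation tests, two-sided. Those of all 21 pairs were added after values were seen. Only the limma fit of single miRNAs and the edgeR fit were tried on simulated reads. The arm ratio fit, DESeq2, limma-voom and the permutation tests were not. Alternatives were TMM and RLE factors, named miRNAs only, 2 other filters, pseudocounts of 0.1 and 10, edgeR and DESeq2 1.42.0 and limma-voom on recovered reads, and leaving out each library. edgeR on these reads called 30 miRNAs and limma 32.

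The members and lists were chosen with earlier results of these data known. The miRNAs named are the 7 members, the 3 nearest patterns of each, and from the lists of other blood cell and inflammation-linked miRNAs the called and the 3 most abundant, with miR-223. From the lists of other cell types those called are named, and the other arms of miR-143 and miR-145, ssc-miR-199a-3p, ssc-miR-199b-3p, ssc-miR-144, ssc-miR-451, ssc-miR-486, ssc-miR-205, ssc-miR-429, ssc-miR-206 and ssc-miR-204 were added after their values were seen. Precursor positions are RefSeq's, on Sscrofa11.1. Sequences were not used here, so other miRNAs with a member's seed were not searched. No row has the same values as a member (0 of 7).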

Additional observations from a re-analysis of the deposited data

How the results depend on the processing

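With all libraries, the call of ssc-miR-142-3p, the direction of each of the 7 members, the arm ratio of miR-142 (3 alternatives, 1.18 to 1.39) and the ratios of ssc-miR-142-3p to the other members kept their direction, and all but ssc-miR-342 their side of the threshold where there was one. With named miRNAs only and with DESeq2, 2 members were called, the second being ssc-miR-342 (1 lower), with differences of -0.97 and -0.93. DESeq2 called 53 miRNAs over the table, 34 of them higher in black skin. The cause was not tested. edgeR called 13 higher and 17 lower, and TMM factors 17 higher and 16 lower.

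Leaving out 1 library gave 7 to 37 calls over the table, 3 to 20 higher and 3 to 17 lower in black skin. They numbered 8 without S03, 16 without S04, 7 without S05, 37 without S02, 7 without S06 and 19 without S07. The members called numbered 0 to 1, the one being ssc-miR-142-3p. Differences were -0.023 for ssc-miR-146a-5p without S05 and -0.021 without S06, and ranged from -0.02 to 0.47 for ssc-miR-146a-5p, -0.24 to 0.41 for ssc-miR-150, -0.32 to 0.12 for ssc-miR-155-5p and -1.04 to -0.70 for ssc-miR-342. Fewer libraries were fitted in each. With 3 libraries a group, intervals of the members spanned about 1 to 2 log2 units, which limits what can be told apart. No paired analysis was possible because the labels give the groups no shared replicate numbers.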
